A study of Arabidopsis thaliana with 2 samples.

Results

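The genes described here are 8 Arabidopsis (Arabidopsis thaliana) loci at which DNA methylation is known to differ between natural accessions or to set expression: QQS (AT3G30720), SDC (AT2G17690), FOLT1 (AT5G66380), HISN6A (AT5G10330), HISN6B (AT1G71920), PAI1 (AT1G07780), PAI2 (AT5G05590) and PAI3 (AT1G29410). They were chosen by name, out of 27444 annotated protein-coding genes, with earlier results of these libraries known, and the rule that assigns bins to them uses position alone. DNA of 12-d-old seedlings was bisulfite sequenced in 1 library of miP1a-OX, a transgenic line that expresses FLAG-tagged miP1a ectopically from the cauliflower mosaic virus 35S promoter (35S::FLAG-miP1a), and in 1 library of wild type Col-0. The records place the seedlings on soil and the methods place them on MS plates, both under long days, and neither library had a treatment. The genome was divided into bins spaced 100 bases apart, of which the first 99 bases were counted, and the deposited table lists only bins whose exact p was at most 0.01. A bin belonged to a gene if it overlapped the annotated gene or the 3000 bases upstream of it, and 18 of the 56731 listed bins did so, in 7 of the 8 genes.

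An epiallele is a form of a gene that differs in methylation and not in sequence and that can be inherited. In plants cytosines are methylated in the contexts CG, CHG and CHH, where H is A, C or T, and methylation of a promoter or of repeats beside a gene often goes with silencing. QQS is an orphan gene of Arabidopsis that regulates the partitioning of carbon to starch and has natural methylated forms. SDC encodes an F-box protein and is silenced in vegetative tissue through methylated tandem repeats upstream of the gene. FOLT1 encodes a folate transporter, HISN6A and HISN6B encode histidinol-phosphate aminotransferase of histidine synthesis, and PAI1, PAI2 and PAI3 encode phosphoribosylanthranilate isomerase of tryptophan synthesis. In these last 3 families, additional gene copies in certain accessions silence a related copy by methylation.

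A methylation level is the percentage of methylated calls among all cytosine calls of a bin, over every sequence context. The listed nuclear bins had a median of 363 calls in miP1a-OX and 361 in Col-0, or 21.6-fold and 21.9-fold depth, and 64% of them had the higher level in miP1a-OX. The listed bins of the chloroplast genome, which is unmethylated in textbook accounts, had levels of 0.177% in miP1a-OX and 0.290% in Col-0. Fisher's exact test (two-sided) on the calls compares these 2 libraries and not the genotypes, since no library was repeated. Each interval, in parentheses after a level, is the 95% Clopper-Pearson interval and takes in the error of counting alone. Calls read from the same DNA fragment are not independent, and the intervals and p-values take no account of that.

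The 18 listed bins made up 4.22% of the 427 bins of the 8 genes and their upstream regions. Among all nuclear bins 4.72% were listed, and among the bins of all protein-coding genes with their upstream regions 3.64% were. At least 1 listed bin was found for 7 of the 8 genes, and for 72.1% of all protein-coding genes. Of the 18 bins, 6 had a higher level in miP1a-OX and 12 a lower one, so that 33.3% were higher, against 64% of all listed nuclear bins. Over all nuclear bins of the genome, 3.02% were listed as higher and 1.7% as lower in miP1a-OX. QQS and HISN6A each had 4 listed bins, and at least 4 were found for 19.1% of all protein-coding genes. The bins are few and some lie side by side, so the 2 shares were not tested against each other. The absolute differences ran from 3.78 to 13.8 percentage points with a median of 6.92, and over all listed nuclear bins the median was 8.03. None of the 18 bins reached the difference of 40 points that, with the p of at most 0.01, defined a differentially methylated region in the study. With at least 10 calls in each library also asked for here, 0.4% of the listed nuclear bins did. None is among the 270 bins of the merged list of such regions.

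The transcribed regions of the 8 genes, with 187 bins, held 4 of the 18 listed bins, 1 in QQS, 1 in FOLT1 and 2 in PAI3. The regions upstream, with 240 bins, held the other 14. Of those, 10 were more than 2000 bases upstream, and 5 of the 18 bins lay in a gene or within 1000 bases of one. Another annotated gene or pseudogene overlapped 13 of the 18 bins. The matching shares over all protein-coding genes were not counted, so whether these positions are particular to the 8 genes was not tested. A bin that is not listed had a p above 0.01 or had no usable calls, and the table does not show which.

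**Figure D1:**
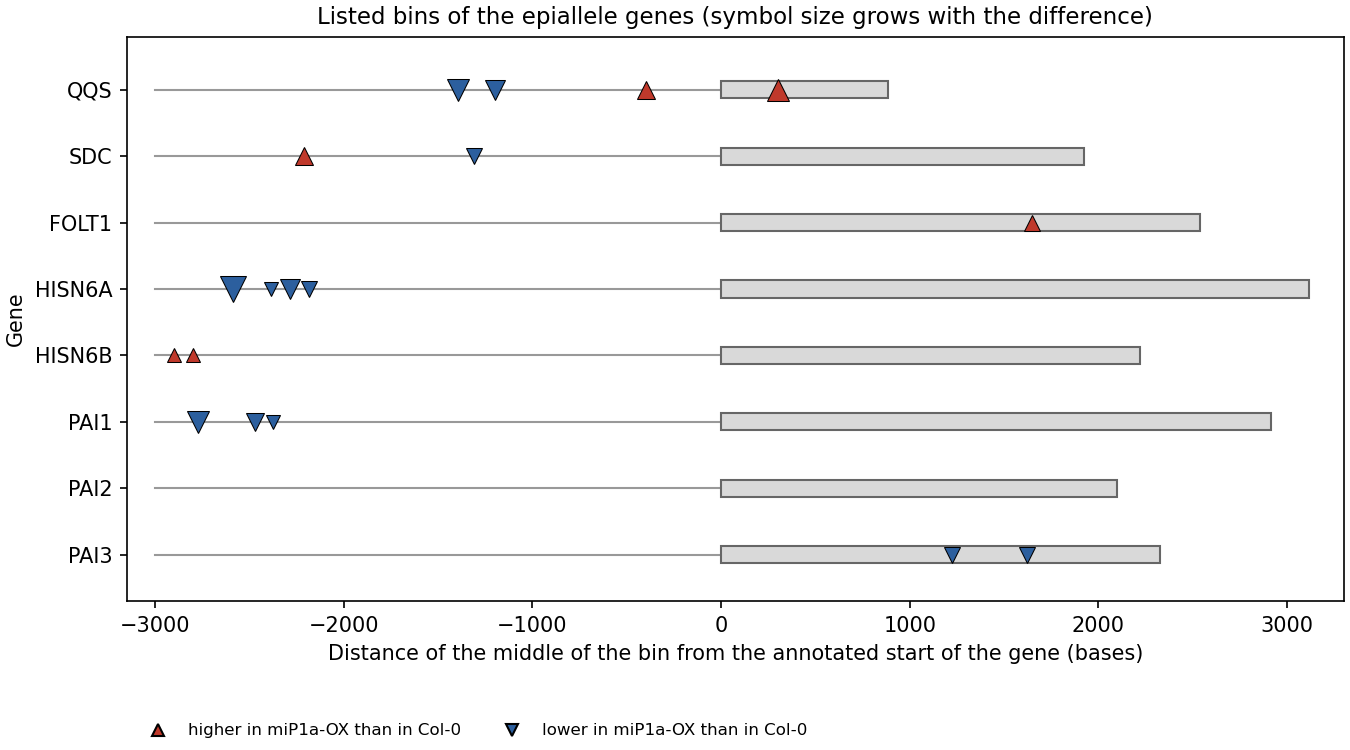
Position of the 18 listed bins relative to the start of each gene, in bases, with the gene as a grey box and the 3000 bases upstream as a line. Upward triangles are the 6 bins with the higher level in miP1a-OX, downward triangles the 12 with the lower level, and PAI2 has none.

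Some of the listed bins are shown as sequence, because they are the listed bin inside QQS, the SDC bin with the smallest p, the bin with the largest difference of the 18 and the PAI1 bin with the smallest p. They are read from the plus strand of the TAIR10.1 reference, 5′ to 3′, with CG sites in capitals. The cytosine numbers of all listed nuclear bins match this reference, so that the coordinates of the files, given on TAIR9, could be used with it.
QQS, chr3:12349301-12349399: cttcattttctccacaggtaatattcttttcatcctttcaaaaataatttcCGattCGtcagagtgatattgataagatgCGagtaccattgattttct
SDC, chr2:7679901-7679999: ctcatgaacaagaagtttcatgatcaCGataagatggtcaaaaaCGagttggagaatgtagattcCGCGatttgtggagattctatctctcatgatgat
HISN6A, chr5:3253501-3253599: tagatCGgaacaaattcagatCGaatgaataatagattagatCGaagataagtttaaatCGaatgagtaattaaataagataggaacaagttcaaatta
PAI1, chr1:2415201-2415299: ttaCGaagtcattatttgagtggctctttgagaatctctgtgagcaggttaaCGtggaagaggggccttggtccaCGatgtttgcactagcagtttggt

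QQS had 4 listed bins, and they went in both directions. The gene lies on the plus strand at chr3:12349047-12349933. Inside it, the bin printed above covers 17 bases of noncoding exon and 82 bases of intron, and 6 of its 32 cytosines on both strands are in CG. It had 78 methylated of 330 calls in miP1a-OX, 23.6% (19.2 to 28.6), and 55 of 411 in Col-0, 13.4% (10.2 to 17.1), a difference of +10.3 points (exact p = 0.000352). The bin 348 bases upstream, chr3:12348601-12348699, was also higher, with 68 of 423 calls methylated in miP1a-OX, 16.1%, and 49 of 542 in Col-0, 9.04% (+7.04 points, exact p = 0.00101). Farther upstream the order turned round.

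At 1148 bases upstream, chr3:12347801-12347899 had 63 of 420 calls methylated in miP1a-OX, 15%, and 75 of 301 in Col-0, 24.9% (-9.92 points, exact p = 0.00106). At 1348 bases, chr3:12347601-12347699 had 29 of 180 calls methylated in miP1a-OX, 16.1%, and 72 of 266 in Col-0, 27.1% (-10.96 points, exact p = 0.00784), and with 8.37-fold depth it was the shallowest of the 18 bins in miP1a-OX. This bin has no cytosine in CG, so its calls came from 8 CHG and 35 CHH cytosines. All 3 upstream bins lie in the annotated pseudogene AT3G30722. None of the 4 bins had an adjusted p of at most 0.01, and the smallest adjusted p was 0.0189, for the bin in the gene. Added up, they had 238 of 1353 calls methylated in miP1a-OX, 17.6%, and 251 of 1520 in Col-0, 16.5%, so that the directions nearly cancelled.

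The nearest listed bins outside the region are given as values only. The bin 68 bases past the end of QQS, chr3:12350001-12350099, had 25.5% of 372 calls methylated in miP1a-OX and 14.5% of 606 in Col-0 (+11.02 points, exact p = 2.31e-05). On the other side, 3148 bases from the gene, the levels were 29.5% of 407 calls in miP1a-OX and 17.2% of 303 in Col-0 (+12.3 points). QQS thus had listed bins of the higher level in miP1a-OX in the gene, just past it, close upstream and 3148 bases away. The bins at 1148 and 1348 bases upstream, both lower in miP1a-OX, lay between the last 2 of these.

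SDC had 2 listed bins, again in opposite directions, and neither lay on the repeats for which the gene is known. The gene is on the plus strand at chr2:7682162-7684083. A search of the region upstream found a tandem repeat with a period of 32 bases, in which 95 of 100 bases matched the base 1 period later. It holds 7 units at chr2:7681864-7682086, each matching their consensus in 27 to 32 of the 32 bases, and ends 76 bases before the annotated gene. The units are shown because their few differences decide how many CG sites each offers, with CG in capitals on the plus strand; the first and the second overlap by 1 base.
SDC repeat unit 1: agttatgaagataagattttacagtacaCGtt
SDC repeat unit 2: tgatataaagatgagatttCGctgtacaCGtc
SDC repeat unit 3: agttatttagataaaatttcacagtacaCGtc
SDC repeat unit 4: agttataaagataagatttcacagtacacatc
SDC repeat unit 5: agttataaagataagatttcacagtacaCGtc
SDC repeat unit 6: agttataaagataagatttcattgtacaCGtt
SDC repeat unit 7: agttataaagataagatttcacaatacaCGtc

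The repeat region holds 14 CG cytosines on both strands and overlaps 3 bins. Of these 3 bins 0 were listed, so the table gives no level for the repeats in either library. The nearer listed bin, chr2:7680801-7680899, ends 965 bases before the repeats. It had 3 of 350 calls methylated in miP1a-OX, 0.857%, and 33 of 435 in Col-0, 7.59% (-6.73 points, exact p = 2.76e-06, adjusted p = 0.000419). All 22 of its cytosines are in CHH, and it has 3 close copies in the genome. At the copy on chromosome 5 a listed bin went the other way, with 32 of 315 calls methylated in miP1a-OX and 0 of 279 in Col-0 (+10.2 points, exact p = 1.18e-09). Whether reads were exchanged between the copies was not tested.

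The farther bin, printed above, had 36 of 451 calls methylated in miP1a-OX, 7.98% (5.65 to 10.9), and 1 of 422 in Col-0, 0.237% (0.0060 to 1.31). The difference was +7.75 points (exact p = 4.87e-10, adjusted p = 2.83e-07). It lies 2163 bases upstream of SDC, wholly in coding sequence of the neighbouring gene AT2G17680. A DNA fragment that covers the bin can give up to 23 calls, so the 36 methylated calls in miP1a-OX could come from as few as 2 fragments.

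FOLT1 had 1 listed bin, inside the gene. The gene is on the minus strand at chr5:26513262-26515800, and the bin, chr5:26514101-26514199, covers 64 coding and 35 intron bases. It had 31 of 262 calls methylated in miP1a-OX, 11.8% (8.18 to 16.4), and 20 of 398 in Col-0, 5.03% (3.10 to 7.65), a difference of +6.81 points (exact p = 0.00168, adjusted p = 0.0604). The intervals did not overlap. With the calls of 1 fragment taken out of miP1a-OX the difference was -3.32 points, so that a single fragment could set its direction. None of the 30 upstream bins was listed, and none of the bins of FOLT1 has a close copy.

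The HISN6 genes differed in direction, and their listed bins were all upstream. HISN6A is on the minus strand at chr5:3247847-3250964, and its 4 listed bins lie 2137 to 2537 bases upstream and overlap the neighbouring gene AT5G10340, the nearest of them with 78 of its 99 bases. All 4 were lower in miP1a-OX. The bin farthest upstream, printed above, had the largest difference of the 18, with 4 of 417 calls methylated in miP1a-OX, 0.959% (0.262 to 2.44), and 68 of 462 in Col-0, 14.7% (11.6 to 18.3), or -13.8 points (exact p = 7.33e-16, adjusted p = 1.77e-12). It lies in an intron of AT5G10340, 8 of its 26 cytosines are in CG, and it has no close copy. Without the calls of 1 Col-0 fragment the difference was -10.3 points (exact p = 3.72e-11).

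The bin at chr5:3253301-3253399 lies in intron sequence of AT5G10340 too, and had 9 of 309 calls methylated in miP1a-OX, 2.91%, and 31 of 410 in Col-0, 7.56% (-4.65 points, exact p = 0.00797, adjusted p = 0.181). The other two bins stood apart by depth. At chr5:3253201-3253299, 630 of 3957 calls were methylated in miP1a-OX, 15.9%, and 1121 of 4484 in Col-0, 25.0% (-9.08 points, exact p = 6.50e-25). At chr5:3253101-3253199, 480 of 3431 were methylated in miP1a-OX, 14.0%, and 696 of 3367 in Col-0, 20.7% (-6.68 points, exact p = 3.71e-13). Their depth was 152-fold and 120-fold in miP1a-OX and 172-fold and 118-fold in Col-0, and 0.258% of the listed nuclear bins were deeper than the first of them in miP1a-OX.

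The deeper of these bins has a copy on chromosome 2 that differs at 1 position. The 97 aligned bases are shown because the match, with the differing base in capitals, bears on which locus the reads came from. The bin is read from the plus strand and the copy from the minus strand.
HISN6A bin, chr5:3253203-3253299: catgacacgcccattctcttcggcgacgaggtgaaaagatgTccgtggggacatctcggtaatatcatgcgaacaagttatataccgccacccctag
Copy, chr2:2268-2364: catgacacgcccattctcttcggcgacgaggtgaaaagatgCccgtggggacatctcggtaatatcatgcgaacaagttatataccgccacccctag
A second copy of the same identity, 98.97%, lies at chr3:14196235-14196331. The copies lie 1342 and 1346 bases from the 18S ribosomal RNA genes AT2G01010 and AT3G41768. After bisulfite conversion an unmethylated C is read as T, so this pair of bases tells the loci apart on the strand shown only where the C is methylated.

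Other close copies of the pair of deep bins, at chr3:15168021-15168117, chr3:15168120-15168201, chr1:12377130-12377211 and chr1:12294385-12294465, had no listed bin. At the copies near the ribosomal RNA genes, 6 bins are listed, and all 6 were lower in miP1a-OX. Their levels ran from 10.01% to 15.2% in miP1a-OX and from 17.3% to 22.4% in Col-0, with differences of -5.81 to -10.2 points and depths of 50.5-fold to 261-fold. The bin with -5.81 points and 261-fold depth, chr3:14196401-14196499, overlaps a copy only up to base 14196415. The level upstream of HISN6A at the deep bins cannot be told apart from that of these copies in the deposited counts. The remaining pair of HISN6A bins, at 21.3-fold to 35.5-fold depth, has no close copy.

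HISN6B is on the plus strand at chr1:27066948-27069166 and shares 99.46% identity with HISN6A over 2219 bases. Its 2 listed bins are neighbours, both in the gene AT1G71900, and both were higher in miP1a-OX. At 2849 bases upstream, chr1:27064001-27064099 had 15 of 346 calls methylated in miP1a-OX, 4.34%, and 2 of 363 in Col-0, 0.551% (+3.78 points, exact p = 0.000923). At 2749 bases, chr1:27064101-27064199 had 13 of 288 calls methylated in miP1a-OX, 4.51%, and 1 of 265 in Col-0, 0.377% (+4.14 points, exact p = 0.00182). A single fragment can give up to 28 calls in the first bin and 18 in the second, so the methylated calls of each could come from 1 fragment. Neither passed adjustment (adjusted p of 0.0389 and 0.0638).

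**Figure D2:**
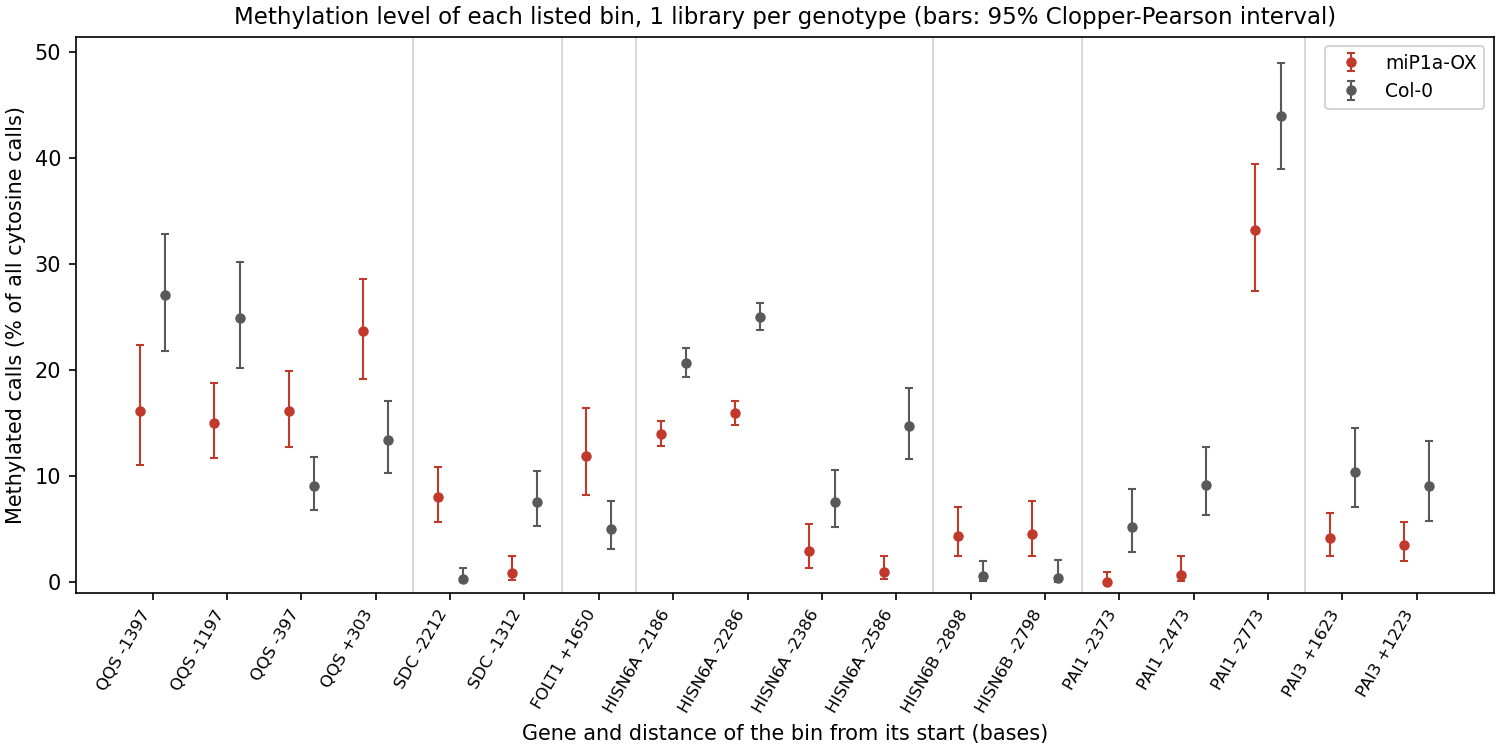
Methylation level of each of the 18 listed bins in percent of all cytosine calls, with miP1a-OX in red left of Col-0 in grey, and bars for the 95% Clopper-Pearson interval. The intervals do not overlap in 15 of the 18 bins, which adds little, since each bin was listed for an exact p of at most 0.01. The share over all listed nuclear bins was not counted. The highest levels are those of the PAI1 bin farthest upstream, 33.2% in miP1a-OX and 43.9% in Col-0.

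Among the PAI genes, PAI1 and PAI3 had listed bins, all lower in miP1a-OX, and PAI2 had none. PAI1 is on the minus strand at chr1:2409865-2412777, and its 3 listed bins lie 2324 to 2724 bases upstream in the pseudogene AT1G07800. The farthest of them, chr1:2415501-2415599, had the highest levels of the 18 bins, with 83 of 250 calls methylated in miP1a-OX, 33.2% (27.4 to 39.4), and 173 of 394 in Col-0, 43.9% (38.9 to 49.0). The difference was -10.7 points (exact p = 0.00814, adjusted p = 0.183), and the intervals overlapped.

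The other two PAI1 bins are adjacent and had almost no methylated calls in miP1a-OX. The bin printed above had 2 of 291 calls methylated in miP1a-OX, 0.687%, and 31 of 340 in Col-0, 9.12% (-8.43 points, exact p = 3.61e-07, adjusted p = 7.87e-05). Only 36 of its 46 cytosines had calls in miP1a-OX, against 46 in Col-0, so its levels were not taken over the same cytosines. In the other 17 bins all cytosines had calls in both libraries. Its neighbour, chr1:2415101-2415199, had 0 of 400 in miP1a-OX, which allows a level of up to 0.75% by the limit of 3 calls and of 0.918% by the upper end of the interval, and 13 of 250 in Col-0, 5.2% (exact p = 3.31e-06, adjusted p = 0.000487). A fragment can give up to 30 and 31 calls in these bins, so the methylated calls in Col-0 could come from 1 fragment in the second and from as few as 2 in the first. With 1 fragment removed, the difference in the printed bin was +0.36 points.

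PAI3 is on the minus strand at chr1:10297750-10300073, and both its listed bins lie in the gene. The bin in a noncoding exon, chr1:10298401-10298499, had 17 of 411 calls methylated in miP1a-OX, 4.14%, and 29 of 280 in Col-0, 10.4% (-6.22 points, exact p = 0.00170, adjusted p = 0.0608). The bin in coding sequence, chr1:10298801-10298899, had 15 of 433 methylated in miP1a-OX, 3.46%, and 22 of 244 in Col-0, 9.02% (-5.55 points, exact p = 0.00416, adjusted p = 0.115). Both have copies in PAI1 and PAI2, at 90.9% to 91.9% identity, and no bin was listed at those copies. In the coding bin a fragment can give up to 28 calls, more than the 22 methylated ones of Col-0, and with them removed the difference was +3.46 points.

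PAI2, on the minus strand at chr5:1666471-1668569, had 0 of its 52 bins listed. The nearest listed bins are 5572 and 8232 bases away. The first had 0 of 418 calls methylated in miP1a-OX and 2.57% of 544 in Col-0, and the second 2.58% of 465 calls in miP1a-OX and 10.9% of 421 in Col-0 (-8.35 points, exact p = 4.41e-07). No level can therefore be given for PAI2 itself.

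The bodies of the HISN6 genes and of PAI1 and PAI2 are nearly identical, and PAI3 is less alike. A bin was said to have a close copy if at least 80 bases of it matched elsewhere in the genome at 90% identity or more. PAI1 and PAI2 matched at 98.76% over 2100 bases, and PAI3 matched PAI1 at 89.87% over 1638 bases. Of the gene bins, 29 of 32 had a close copy in HISN6A, 23 of 23 in HISN6B, 29 of 30 in PAI1, 21 of 22 in PAI2 and 10 of 24 in PAI3. In QQS, SDC and FOLT1 none of the gene bins did, 0 of 10, 0 of 20 and 0 of 26. Of the 112 gene bins with a copy 2 were listed, and of the 75 without one 2 were, which is too few to compare. No listed bin lay in HISN6A, HISN6B, PAI1 or PAI2, and whether reads were lost there because they map to more than 1 place was not tested.

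**Figure D3:**
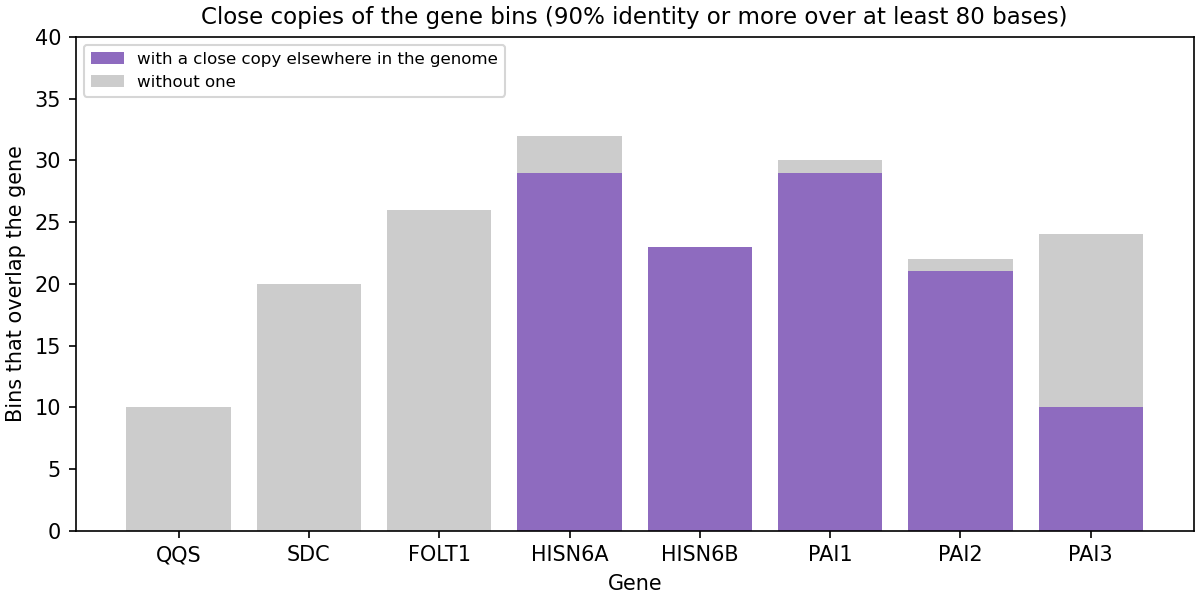
Number of bins that overlap each gene, divided into bins that have a close copy and bins that have none. All 23 gene bins of HISN6B have a copy, and none of the bins of QQS, SDC and FOLT1 has.

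Over the 18 bins, 13 had no close copy, of which 6 were higher and 7 lower in miP1a-OX. The 5 bins with a copy, 1 of SDC, 2 of HISN6A and 2 of PAI3, were all lower. The 2 of HISN6A are adjacent. Directions with and without a copy were not counted over all listed nuclear bins, so whether direction goes with copies was not tested. An adjusted p of at most 0.01 was reached by 7 of the 18 bins, beside 32.2% of the listed nuclear bins. These were both SDC bins, 3 of HISN6A and 2 of PAI1. In each bin, methylated calls that 1 fragment could add were also taken out of whichever library was higher. After that, 5 bins still had an exact p of at most 0.01 in the same direction. They were the 2 of SDC and 3 of HISN6A, including the pair with ribosomal copies. The removal was not applied to all listed nuclear bins, so no share stands beside this count. When each read was counted about once, 0 of the 18 had an exact p of at most 0.01. Few methylated reads were then left in most bins, so this count says little about them. In the printed PAI1 bin, for example, 0 of 16 reads in miP1a-OX and 1 of 14 in Col-0 counted as methylated, which cannot reach that p.

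Sequence context was shared unevenly. No cytosine in CG was found in 2 of the 18 bins, 1 of QQS and 1 of SDC, and in 17.5% of all listed nuclear bins. Both were lower in miP1a-OX. The share of cytosines in CG was highest in the HISN6A bins at chr5:3253201-3253299 and chr5:3253501-3253599, at 30.8% in each. The counts of a bin are not divided by context, so that no level in CG, CHG or CHH can be given.

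**Figure D4:**
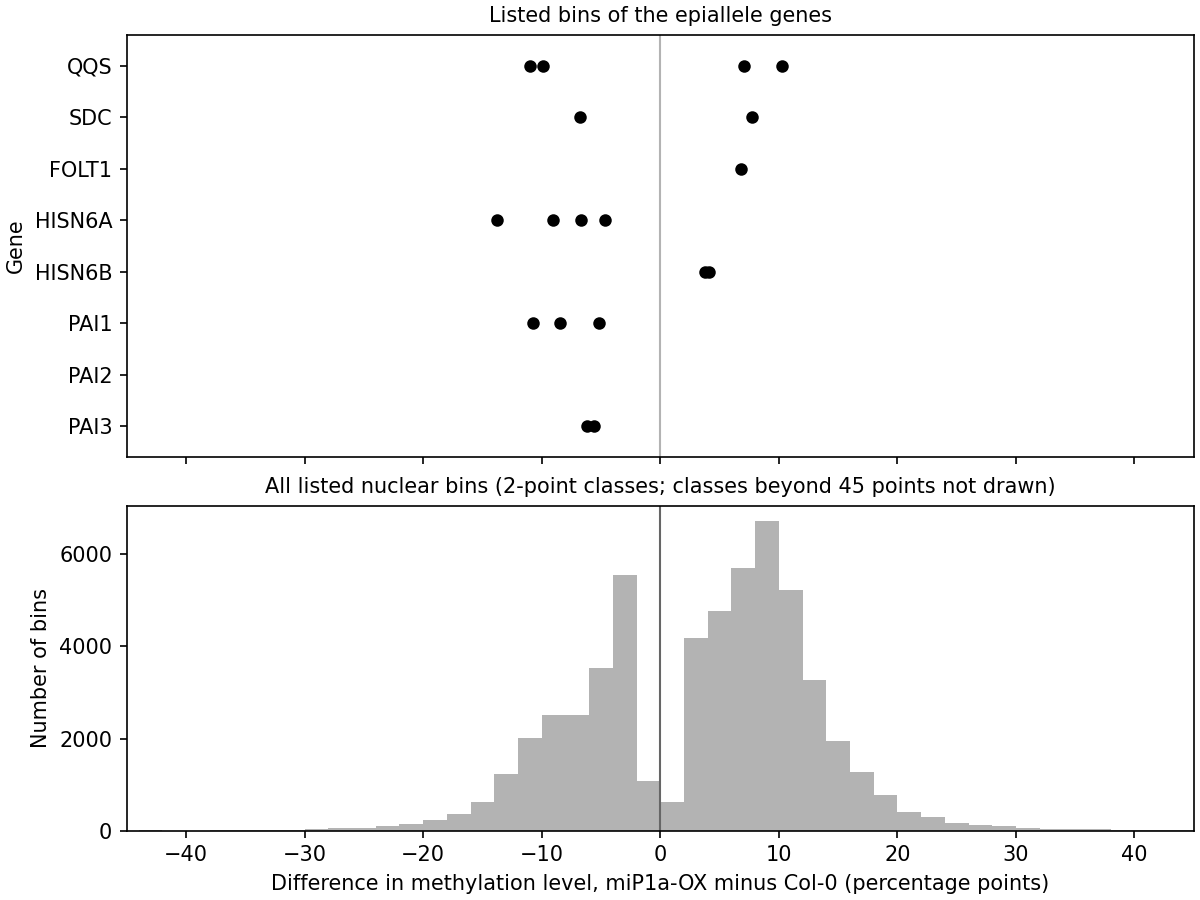
Difference in methylation level, miP1a-OX minus Col-0 in percentage points, for the listed bins of each gene (above) and for all listed nuclear bins in classes of 2 points (below). The bins of the 8 genes lie between -13.8 and +10.3 points, and the lower plot dips around 0, where few bins reach the p of at most 0.01 that a listed bin must have.

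The other genes of the pathways gave values of the same order. Of 10 other genes of tryptophan synthesis, 10 had a listed bin, 23 bins in all, 13 higher and 10 lower in miP1a-OX, with a median absolute difference of 4.08 points. Listed bins made up 3.96% of the bins of these genes, near the 3.64% of all protein-coding genes. The largest was in TSB1, which encodes a tryptophan synthase beta subunit, with 44 of 311 calls methylated in miP1a-OX, 14.1%, and 7 of 175 in Col-0, 4.0% (+10.15 points, exact p = 0.000317). Of 9 other genes of histidine synthesis, 7 had a listed bin, 18 bins in all, 6 higher and 12 lower, with a median of 5.08 points, and 3.36% of their bins were listed. The largest was 322 bases upstream of ATP-PRT1, which encodes an ATP phosphoribosyltransferase, with 183 of 495 calls methylated in miP1a-OX, 37.0%, and 118 of 549 in Col-0, 21.5% (+15.5 points, exact p = 3.96e-08). None of these bins was past both thresholds.

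A further 7 genes with known epialleles were counted for comparison, and 6 of them had a listed bin, 17 bins in all, 11 higher and 6 lower in miP1a-OX. The largest difference was in BNS, with 184 of 382 calls methylated in miP1a-OX, 48.2%, and 126 of 388 in Col-0, 32.5% (+15.7 points, exact p = 1.01e-05). In FWA, a homeodomain gene silenced by methylated repeats in its promoter, 1 bin had 113 of 287 calls methylated in miP1a-OX, 39.4%, and 108 of 402 in Col-0, 26.9% (+12.5 points, exact p = 0.000672). The other listed bin of FWA had 0 of 408 in miP1a-OX and 8 of 421 in Col-0 (-1.90 points, exact p = 0.00760). Listed bins made up 3.74% of the bins of these 7 genes, against 4.22% of those of the 8 genes described here, and none of the 17 was past both thresholds.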

How the data were processed

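Genomic DNA of 12-d-old seedlings was bisulfite sequenced in 1 library of miP1a-OX and 1 of Col-0. Per the labels and methods, reads were mapped by the authors to TAIR9, with BS-Seeker2 2.1.0 running Bowtie2, Methpipe gave the levels and bedtools the bins. The authors deposited, per bin, raw counts of the methylated calls and of the unmethylated ones. The deposited level is a fraction, methylated over all calls. The deposited p-value comes from Fisher's exact test per bin, is unadjusted and is at most 0.01 in each listed bin. The deposited merged list, annotated with HOMER, was used for its bins only. The table's other 8 columns that hold values of a library were left out. The table's cytosine numbers count C and G of a bin, so that levels pool all contexts.

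Levels, two-sided Fisher's exact tests and 95% Clopper-Pearson intervals were computed from the counts with scipy 1.17.1, pandas 2.3.3 and numpy 2.4.6 in python 3.11.15, and plots with matplotlib 3.10.9. The recomputed p differed by over 1% from the deposited one in 0 bins. A level of 0 was given the limit that 3 calls allow. For the Benjamini-Hochberg adjustment the number of tests was set to the 1196690 bins of the reference genome, since bins above 0.01 are not in the table. Genes, strands and sequences come from the RefSeq record of TAIR10.1, whose cytosine numbers matched 100% of the listed nuclear bins. A close copy of a bin was a blastn 2.17.0 match to another place that spans 80 or more bases with an identity of 90% or more. The test was tested on simulated data. The calls a fragment can give were set to the cytosines of the strand richer in them.

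The text names all 8 genes with each of their listed bins, neighbours that overlap a bin, and examples from the lists of tryptophan, histidine and other epiallele genes. The members and lists were chosen with earlier results of these data known. The alternatives tried were 0, 1000 and 2000 bases upstream, coverage minimums of 1, 20 and 50 calls, adjustment and removal of 1 fragment per bin. Further ones were differences of 0.3 and 0.5, the mean of bin levels in place of added calls, and division of calls so that a read counts about once.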

Additional observations from a re-analysis of the deposited data

How the results depend on the processing

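Coverage minimums of 1, 20 and 50 calls and differences of 0.3 and 0.5 could not change the 18 listed bins or the 0 past both thresholds, since the smallest number of calls was 180 in miP1a-OX and 244 in Col-0 and the largest difference 13.8 points. The counts moved with the other choices. Against 6 bins higher and 12 lower in miP1a-OX with 3000 bases upstream, there were 2 and 2 with the genes alone, 3 and 2 with 1000 bases upstream, 3 and 5 with 2000 bases, 1 and 6 with Benjamini-Hochberg adjustment and 2 and 4 with 1 fragment removed, where 1 of the 2 higher bins was a PAI3 bin that had turned round. The number of genes with a listed bin was 3, 3 and 4 at 0, 1000 and 2000 bases upstream. The calls of each gene's bins, added up, differed by +1.08 points in QQS, +0.90 in SDC, +6.81 in FOLT1 and -8.12 in HISN6A. They differed by +3.94 in HISN6B, -13.0 in PAI1 and -5.94 in PAI3. In HISN6A, 3431 and 3957 of the 8114 calls in miP1a-OX came from the pair of deep bins with ribosomal copies. Its value is thus mostly that of bins whose level cannot be told apart from those copies. In QQS the value was +10.3 with the gene alone, +8.48 with 1000 bases upstream and -0.90 as the mean of bin levels, and in SDC it was -6.73 with 2000 bases upstream. As the mean of bin levels it was -8.11 in PAI1. The added-up -13.0 points of PAI1 are larger than the difference of any of its bins (-5.2, -8.43 and -10.7 points). Its bin with the highest levels gave 394 of the 984 calls in Col-0 but 250 of the 941 in miP1a-OX, so the libraries weight it unequally. With 1 fragment removed from each bin, the added-up value was -0.43 in SDC, -3.32 in FOLT1, -0.48 in HISN6B, -5.93 in PAI1 and +1.52 in PAI3. In single bins the difference was then -3.32 in FOLT1 (exact p = 0.0501) and -0.55 and -0.38 in HISN6B. It was +0.36 at chr1:2415201-2415299 of PAI1 and +3.46 at chr1:10298801-10298899 of PAI3 (exact p = 0.00374). In these single bins the removal shows that 1 fragment can set the sign. Whether it did was not tested, since the counts do not show which calls share a fragment. In genes with more than 1 listed bin the added-up value lost 1 fragment per bin, so it does not show the effect of 1 fragment alone. With a read counted about once, the smallest number of reads in a bin was 8 and 0 bins had an exact p of at most 0.01. Few methylated reads were left in most bins, so this count says little about them. The pair of deep HISN6A bins kept more and had exact p of 0.0539 and 0.231. No paired analysis was possible because miP1a-OX and Col-0 have 1 library each, and none could be left out.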
